A study of Homo sapiens with 4 samples.

Results

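MCP-1, MCP-2, MCP-3 and RANTES are the CC chemokines of a protein array that was used on medium conditioned by U937 cells, cells grown from a human leukaemia that resemble immature monocytes. They were taken by their row names, and they are 4 of the 21 distinct proteins in the deposited table. The cells had been transduced with a retrovirus and selected for stable expression of either an empty vector or a dominant negative fragment of TIFA, an adaptor protein that carries innate immune signals to NF-kB. The 4 samples were the vector line with PBS, the vector line with cytarabine (an anti-leukaemia drug that stops DNA replication), the F1F2 fragment line with cytarabine and the F2F3 fragment line with cytarabine. Cytarabine was given at 10 µM for 72 h to equal numbers of cells, and cell-free supernatant was labelled with biotin. The sources used here do not say how long the PBS sample was kept, or whether each line was a clone or a pool. The design text calls both fragment lines F1F2, but the last sample is F2F3 by its own labels, which are used here. Fragment lines without cytarabine were not analysed here, so a difference between a fragment line and the vector line cannot be told apart from a difference between separately selected lines.

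CC chemokines are small secreted proteins, named for a pair of adjacent cysteines, that guide leukocytes along a concentration gradient through G protein-coupled receptors. The monocyte chemoattractant proteins MCP-1 (CCL2), MCP-2 (CCL8) and MCP-3 (CCL7) draw monocytes, with CCR2 as a shared receptor, and RANTES (CCL5) draws T cells as well as monocytes. Monocytes and macrophages release them when stimulated, and the genes of MCP-1 and RANTES are well known targets of NF-kB.

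Each of the 4 array names is a listed synonym of its gene in RefSeq (GRCh38.p14). The genes of the 3 MCPs lie close together on chromosome 17. CCL2 (MCP-1) spans chr17:34255285-34257203, and CCL7 (MCP-3) begins 13.0 kb past its end, at chr17:34270221-34272242. CCL8 (MCP-2) follows 47.2 kb further on, at chr17:34319435-34321402, with CCL11 as the protein-coding gene between them. CCL5 (RANTES) is on the same chromosome at chr17:35871491-35880360, 1550 kb past CCL8. The promoter table held 2 of the 4 genes, CCL7 and CCL8, which encode the member with the dimmest signal and a member that was bright (0.1 or more, with the positive control at 1) in every sample. The 60 bases before each gene's start are shown to compare these neighbours, in RefSeq sequence of the forward strand, with the TATAAA motif in capitals.
CCL7, chr17:34270161-34270220: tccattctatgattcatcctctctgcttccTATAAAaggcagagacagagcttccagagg
CCL8, chr17:34319375-34319434: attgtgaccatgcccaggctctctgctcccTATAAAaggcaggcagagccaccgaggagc
TATAAA began 30 bases before the start in both genes, inside a shared stretch of 14 bases, ccTATAAAaggcag. TATAAA on either strand was present in 10.7% of the 35116 RefSeq promoters over the 250 bases before the start. The NF-kB consensus, searched by its name's standard 10-base pattern on both strands, was in 5.21% of them and had no match in this window of either gene, which says only that these letters are absent there.

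All intensities are relative to the array's positive control, which is 1, and each is a single reading (n = 1). No difference could therefore be set against a spread between replicates, no test was possible, and no p-value is given. A protein was called higher or lower when 2 intensities differed by at least 1.5-fold. Readings under a floor of 0.0099, which is the 25th percentile over every protein reading, were set to it, so a fold against such a reading is a bound. The array reads medium, so fewer cells and less protein released per cell cannot be told apart. The summed intensity of the 21 proteins was 3.67 to 4.35 per array. The 6 proteins chosen as secreted by monocytic cells were IL-8, TNF-alpha, IL-1-beta, IL-6, IL-10 and MCP-1, which is itself a member. Of these, 5 reached 0.1 in at least 1 sample, and the sum of all 6 was 2.60 to 3.10. IL-1-beta did not reach it, with readings of -0.00153 to 0.0174. Of 4 lymphocyte cytokines, 1, IL-5, reached 0.1, IL-13 stayed under the floor in all samples, and the sum was 0.0560 to 0.178.

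MCP-1, the main monocyte attractant of the family, read 0.609 in the vector sample with PBS, 0.730 in the vector sample with cytarabine, 0.655 with F1F2 and 0.564 with F2F3. Its highest reading was 1.29 times its lowest. The vector sample with cytarabine was the highest and the F2F3 sample the lowest. MCP-2, a relative of MCP-1 that also acts on other CC receptors, read 0.257 with PBS, 0.327 with cytarabine, 0.259 with F1F2 and 0.220 with F2F3, a span of 1.48-fold. MCP-2 put the 4 samples in the same order as MCP-1, and it was the only other of the 21 proteins to do so. RANTES read 0.117 with PBS, 0.150 with cytarabine, 0.129 with F1F2 and 0.157 with F2F3, a span of 1.34-fold. Its order differed from that of MCP-1 and MCP-2, because the F2F3 sample was the highest and not the lowest, and no other panel protein shared this order. MCP-3 read 0.0108 with PBS, 0.00313 with cytarabine, 0.0213 with F1F2 and 0.0371 with F2F3. It was dim in every sample, under the floor in vector cells with cytarabine, and higher in the fragment samples than in either vector sample.

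**Figure D1:**
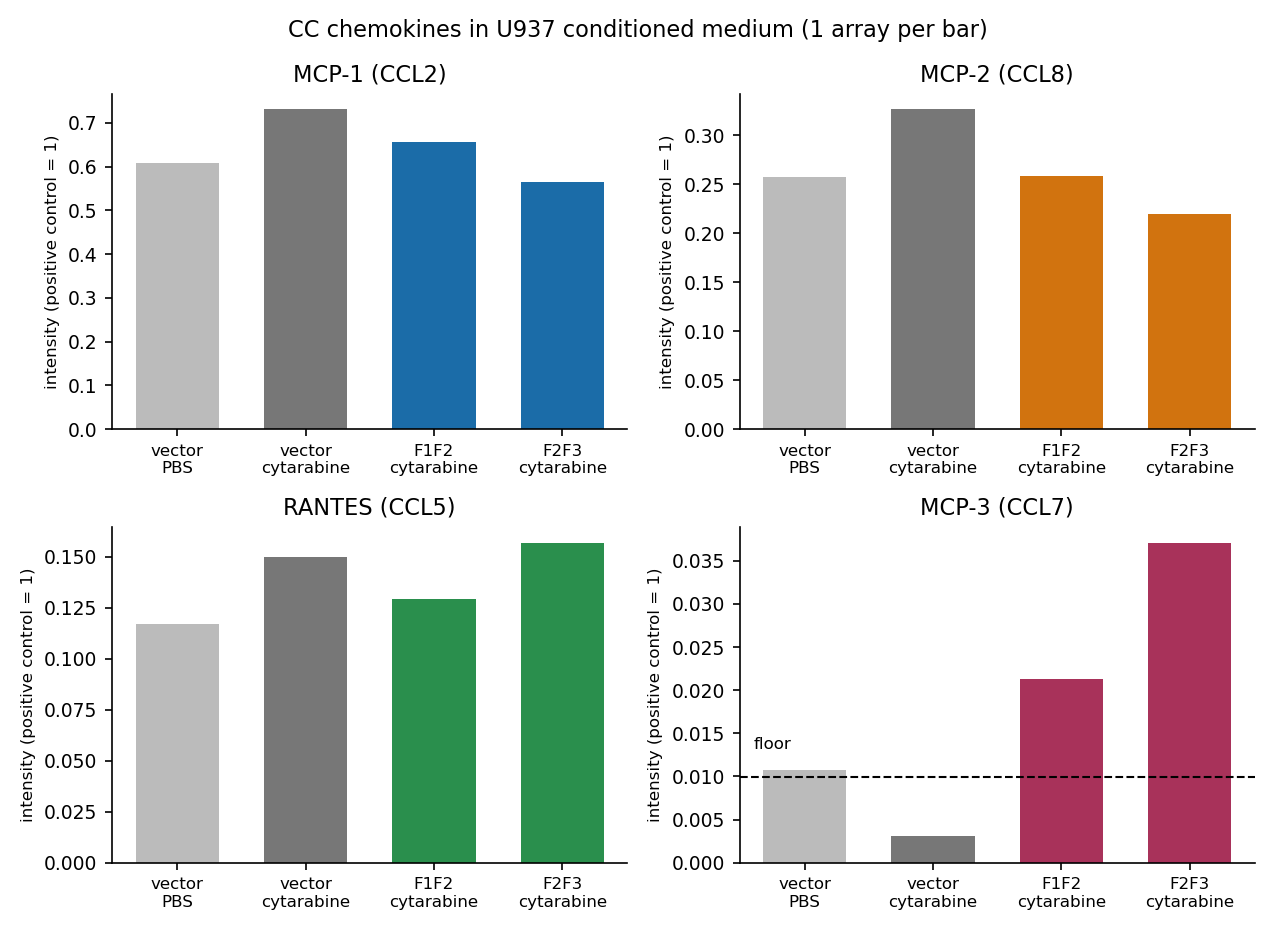
Intensity relative to the positive control (vertical axis, from 0, with a different range in each panel) of the 4 CC chemokines in the 4 samples; each bar is 1 array, so there are no error bars, and the dashed line marks the floor of 0.0099. MCP-1 and MCP-2 are highest in the vector sample with cytarabine and lowest with F2F3, while RANTES and MCP-3 are highest with F2F3.

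The first comparison asked how cytarabine altered the medium of vector cells. MCP-1, MCP-2 and RANTES each read higher with the drug, by 20.0%, 26.9% and 28.3%, and none of these 3 reached 1.5-fold. MCP-3 had the opposite direction, at least 1.09-fold lower, a difference of -0.00764 in intensity. Thus 0 of the 4 members were called higher and 0 lower, while of the 17 proteins with a ratio 17.6% were called higher and 23.5% lower. The members' median log2 ratio was 0.30, beside 0.26 for all proteins with a ratio. The CXC chemokines on the panel, which carry a residue between the cysteines and include attractants of neutrophils, gave ratios in the same range where they were bright: IL-8 (CXCL8) had a log2 ratio of 0.24 and GRO (the CXCL1 to CXCL3 group) 0.31. The sum of the 4 members was 0.994 with PBS and 1.21 with cytarabine, which is 23.4% and 27.8% of the summed signal of the panel.

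Set beside the vector sample under the same drug, the bright CC chemokines of the F1F2 sample read slightly lower. MCP-1 was lower by a factor of 1.11, MCP-2 by 1.26 and RANTES by 1.16, and MCP-3 was at least 2.15-fold higher. Hence 1 of the 4 members, MCP-3, was called higher and 0 lower, against 22.2% higher and 16.7% lower among the 18 proteins with a ratio. The members' median log2 ratio was -0.19, the same as the median over all proteins with a ratio. In the F2F3 sample MCP-1 was lower than in the vector sample by 1.29-fold and MCP-2 by 1.48-fold, just short of the threshold. RANTES was 1.04-fold higher and MCP-3 at least 3.74-fold higher. Again 1 of 4 members was called higher and 0 lower, against 33.3% higher and 16.7% lower among 18 proteins. The median log2 ratio was -0.15 for the members and -0.08 for all proteins with a ratio. With the arrays brought to the same median over the 21 proteins, the split was 1 higher and 3 lower with either fragment. MCP-1, MCP-2 and RANTES were then called lower. This scaling moved every measured log2 ratio on the panel by -0.53 with F1F2 and by -0.67 with F2F3. The share of all proteins called under it was not computed, so these calls do not set the members apart from the panel. That median is the reading of 1 protein under 0.1 on each array, so these calls depend on it. Both fragment comparisons share the vector sample with cytarabine, so a reading that was high or low on that 1 array enters both in the same direction.

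The 8 panel proteins listed as NF-kB targets apart from the CC chemokines were IL-6, IL-8, TNF-alpha, IL-1-beta, GRO, GRO-alpha, GM-CSF and G-CSF. Of these 8, 7 had a ratio in each of these 3 comparisons. With cytarabine in vector cells 2 were called higher and 2 lower, beside 17.6% higher and 23.5% lower among all 17 proteins with a ratio. With either fragment 3 were called lower and 1, IL-6, higher, by 3.41-fold with F1F2 and 2.99-fold with F2F3. Among all 18 proteins with a ratio, 22.2% were called higher with F1F2 and 33.3% with F2F3, and 16.7% lower with either. The median log2 ratio of the listed NF-kB targets was -0.51 with F1F2 and -0.57 with F2F3, in both the ratio of IL-8. IL-8, GRO and GRO-alpha are in this list and among the CXC chemokines. The 4 CXC chemokines had medians of -0.86 and -0.94, with bounds counted at their value. IL-8 was lower by 1.42-fold with F1F2 and 1.48-fold with F2F3, and GRO by 2.33-fold and 2.46-fold. GRO-alpha (CXCL1) read 0.00224 with PBS, 0.0608 in the vector sample with cytarabine, -0.00458 with F1F2 and 0.0190 with F2F3. With cytarabine in vector cells GRO-alpha was thus at least 6.14-fold higher, the highest of the 17 ratios there. MIG (CXCL9), an attractant of activated T cells, stayed between -0.000349 and 0.0172 in the 4 samples.

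**Figure D2:**
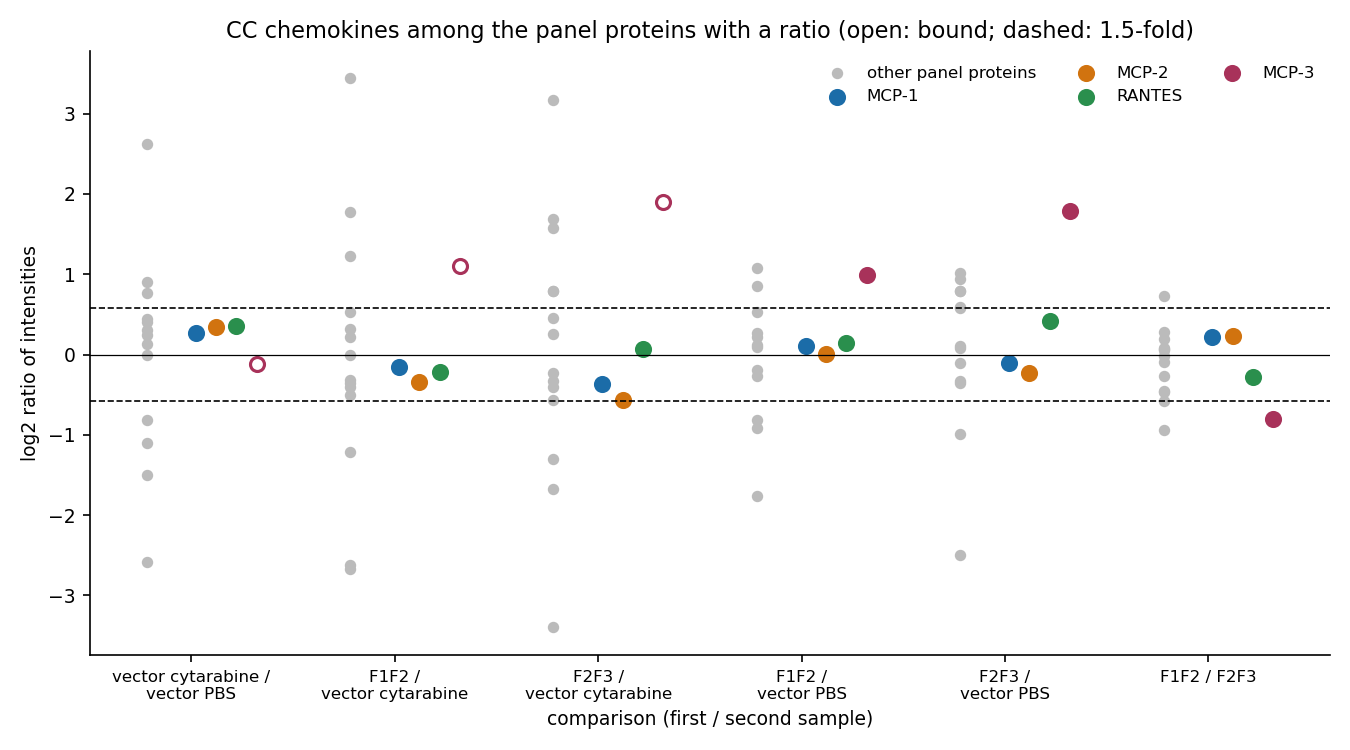
Log2 ratio of intensities (vertical axis) in 6 comparisons of single arrays (horizontal axis, first over second sample) for the 4 CC chemokines (coloured) and the other panel proteins with a ratio (grey); open circles are bounds set by the floor and dashed lines mark 1.5-fold. MCP-1, MCP-2 and RANTES lie within the dashed lines in all 6 comparisons, and MCP-3 lies outside them in 5.

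The PBS sample gives a second reference for the fragment lines, which does not rest on the vector sample with cytarabine. MCP-1 read 1.08-fold above PBS for F1F2 and 1.08-fold below it for F2F3. MCP-2 was within 1.01-fold of PBS with F1F2 and 1.17-fold lower with F2F3. RANTES read above PBS with either fragment, by 1.11-fold for F1F2 and by 1.34-fold for F2F3. These samples differ from the PBS sample in both drug and line. In intensity as deposited, the vector sample with cytarabine exceeded PBS by 0.122 for MCP-1, and the F1F2 sample stood at 38.4% of that difference. For MCP-2 the difference was 0.0693 and the F1F2 sample stood at 1.91% of it, and for RANTES it was 0.0331 with the F1F2 sample at 37.5%. These positions hold for the deposited scaling only: brought to the same median over the 21 proteins, the F1F2 sample was below PBS for all 3, with log2 ratios of -0.34, -0.44 and -0.30. With F2F3, MCP-1 and MCP-2 were below the PBS sample, with differences of -7.29% and -14.5%, whereas RANTES stood at 120% of the difference. MCP-3 exceeded its PBS reading by 1.98-fold for F1F2 and 3.44-fold for F2F3, the highest of the 17 ratios in the latter comparison. Thus 1 of the 4 members was called higher with either fragment, beside 18.8% of 16 proteins called higher with F1F2 and 35.3% of 17 with F2F3, and 0 were called lower, beside 18.8% and 11.8%.

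Between the fragments, MCP-1 was 1.16-fold and MCP-2 1.18-fold higher with F1F2 than with F2F3. RANTES and MCP-3 had the opposite direction, higher with F2F3 by 1.21-fold and 1.74-fold. In this comparison 1 of 4 members was called lower and 0 higher, beside 11.8% lower and 5.88% higher among 17 proteins. As each fragment has 1 array, these differences have no interval.

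The ratio of 2 proteins on the same array does not depend on how the arrays are scaled, and its change between samples shows whether they moved unequally; it says nothing of which protein was the more abundant. Among MCP-1, MCP-2 and RANTES, 18 such changes were computed, of which 2 reached 1.5-fold, with a median of 1.09-fold. The ratio of MCP-1 to MCP-2 differed between samples by 1.01-fold to 1.15-fold. From PBS to cytarabine in vector cells, the ratio of MCP-2 to RANTES differed by 1.01-fold and that of MCP-1 to RANTES by 1.07-fold, so the 3 bright members were higher by nearly the same factor. In the F2F3 sample RANTES departed from MCP-1 and MCP-2. The ratio of MCP-2 to RANTES was lower there by 1.55-fold than in the vector sample with cytarabine and by 1.57-fold than with PBS. With a pseudocount of 0.05 they were 1.44-fold and 1.41-fold, both under the threshold. The ratio of MCP-1 to RANTES was lower by 1.35-fold and 1.45-fold. In the F1F2 sample the same ratios stayed within 1.09-fold of the vector sample with cytarabine for MCP-2 and within 1.04-fold for MCP-1.

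Against the bright CXC chemokines, the bright CC chemokines had ratios in vector cells with cytarabine that were within 1.09-fold of those with PBS, and they stood apart from GRO in the fragment samples. Relative to the vector sample with cytarabine, the ratio of MCP-1 to GRO was higher by 2.09-fold for F1F2 and by 1.90-fold for F2F3. For MCP-2 the ratio to GRO was 1.84-fold and 1.66-fold higher, and for RANTES 2.01-fold and 2.57-fold higher. All 3 members share the GRO reading in these ratios. IL-8 was closer to MCP-1 and MCP-2: the ratio of MCP-2 to IL-8 was 1.12-fold higher with F1F2 and with F2F3 did not differ to 2 decimals in log2, and that of MCP-1 to IL-8 was 1.27-fold and 1.15-fold higher. The ratio of RANTES to IL-8 was higher by 1.22-fold for F1F2 and by 1.55-fold for F2F3 (1.48-fold with the pseudocount), and in the F2F3 sample it exceeded that with PBS by 1.69-fold.

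**Figure D3:**
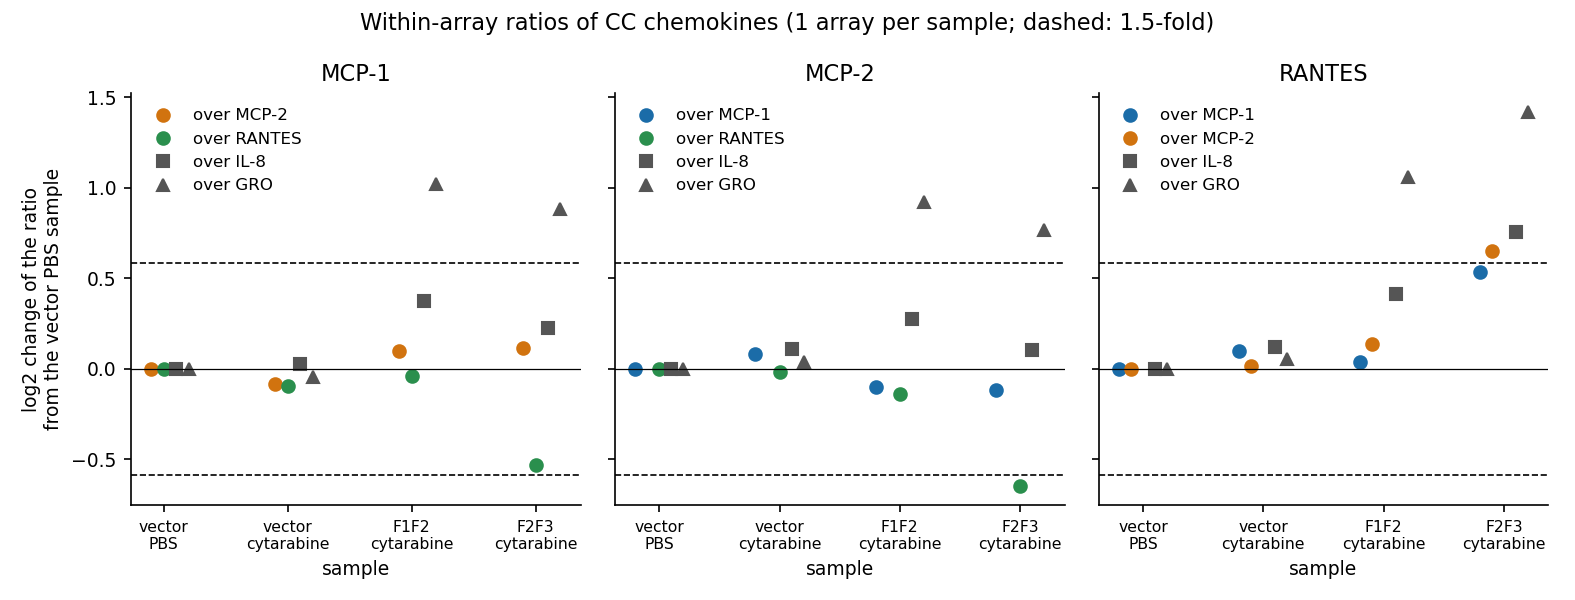
Log2 change, from the vector sample with PBS, of the within-array ratio of MCP-1, MCP-2 and RANTES (panels) over each other and over IL-8 and GRO (markers), in the 4 samples with 1 array each; dashed lines mark 1.5-fold. The ratios are close to 0 in the vector sample with cytarabine, the ratios over GRO lie above the upper line in both fragment samples, and RANTES over IL-8 and over MCP-2 pass it in the F2F3 sample.

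Likeness of pattern was measured as the root mean square difference of log2 intensities over the 4 samples, after centring each protein on its mean. For MCP-1 the most alike of 12 candidates, those at or above the floor in every sample, were MCP-2 (0.0799), GM-CSF (0.104) and IL-10 (0.126). For MCP-2 they were MCP-1 (0.0799), IL-8 (0.0985) and GM-CSF (0.124). For RANTES the nearest were GM-CSF (0.148), IL-10 (0.189) and MCP-1 (0.214). GM-CSF, a growth factor of myeloid cells, was under 0.1 throughout, between 0.0468 and 0.0634, so its place rests on small differences. For MCP-3, with its reading in the vector sample with cytarabine raised to the floor, the nearest of 13 were IFN-gamma (0.437), IL-7 (0.455) and IL-3 (0.582), all of them under 0.1 in every sample and none as near as the first neighbours of the other members. These values describe 4 arrays.

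As deposited, every call among the members at 1.5-fold was of MCP-3, which was under 0.05 in all samples. Its readings spanned 0.0339, while the other 7 proteins that stayed under 0.05 spanned 0.0121 to 0.0215, with a median of 0.0177. IL-7, which reached 0.0523 and is not among these 7, spanned 0.0361. Others just past 0.05 were GRO-alpha, which reached 0.0608 and spanned 0.0654, IFN-gamma with a span of 0.0240 and GM-CSF with 0.0166. The cut at 0.05 itself limits the spans of the dim proteins. The fragment samples exceeded the vector sample with cytarabine by 0.0182 (F1F2) and 0.0339 (F2F3) in MCP-3 intensity. The difference for F1F2 was within the spans of the other dim proteins, which cover all 4 samples. The one for F2F3 was above them, though below the spans of IL-7 and GRO-alpha. In the same comparison with F1F2, the largest difference among those 7 proteins was -0.0177 (IL-2), slightly smaller than that of MCP-3. With F2F3 it was 0.0121 (G-CSF). IL-7 differed by 0.0215 with F1F2 and 0.0361 with F2F3, more than MCP-3 in either. GRO-alpha also differed by more, in the other direction, by -0.0654 and -0.0419, while IFN-gamma and GM-CSF differed by less than MCP-3. With a pseudocount of 0.05 in place of the floor, MCP-3 passed 1.5-fold only for F2F3 against the vector sample with cytarabine. Its PBS reading was itself just above the floor. The order of the samples in MCP-3 was also that of G-CSF, IFN-gamma and IL-7. G-CSF was under the floor in all 4 samples, and IFN-gamma read 0.0328 in both vector samples, so these orders rest on very small differences. The summed lymphocyte cytokines had the same order, with 0.101 with PBS, 0.0560 with cytarabine, 0.161 with F1F2 and 0.178 with F2F3. That sum includes readings below 0 with F1F2, -0.0156 for IL-13 and -0.00462 for IL-2. IL-5, the brightest of these cytokines with either fragment, was higher with F1F2 (0.134) than with F2F3 (0.110). The order of the fragment samples in the sum thus rests on readings near 0. Whether any of these proteins have a part in the MCP-3 result was not tested.

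Bringing the arrays to a common median or a common total tested how far the member ratios rest on the positive control. Either median is, on each array, the reading of 1 protein under 0.1. Over the 21 proteins it was IL-7 with PBS (0.0347) and with F2F3 (0.0523). In the vector sample with cytarabine (0.0328) and with F1F2 (0.0474) it was IFN-gamma. Either total depends on bright proteins that differed between arrays. IL-6 read 0.431 in the vector sample with cytarabine, 1.47 with F1F2 and 1.29 with F2F3. TNF-alpha read 0.871, 0.137 and 0.0824 in the same samples. In the vector comparison the log2 ratio with cytarabine was 0.23 to 0.35 for MCP-1, 0.31 to 0.43 for MCP-2 and 0.32 to 0.44 for RANTES over 5 scalings, the deposited one included. With F1F2 against the vector sample with cytarabine, MCP-1 ranged from -0.69 to -0.0035, MCP-2 from -0.87 to -0.18 and RANTES from -0.75 to -0.06, lower in all 5 but past 1.5-fold only where arrays were brought to the same median: all 3 with the median over the 21 proteins, and MCP-2 alone with that over the 23 rows. With F2F3, MCP-1 ranged from -1.04 to -0.13 and MCP-2 from -1.24 to -0.32, again lower in all 5, whereas RANTES ranged from -0.61 to 0.31 and was higher in 3 and lower in 2. MCP-3 was called higher against the vector sample with cytarabine in all 5, with bounds on the log2 ratio of 0.82 to 1.19 for F1F2 and 1.42 to 2.07 for F2F3. Its call against PBS with F1F2 ended with the median over the 21 proteins (log2 ratio 0.54), and its call between the fragments ended with that over the 23 rows (-0.50). Against PBS the direction turned with the scaling for MCP-1, MCP-2 and RANTES with either fragment. The scalings shifted every measured log2 ratio to the vector sample with cytarabine by -0.53 to 0.15 for F1F2 and by -0.67 to 0.25 for F2F3; the bounds of MCP-3 moved by other amounts, since the floor was set anew each time.

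**Figure D4:**
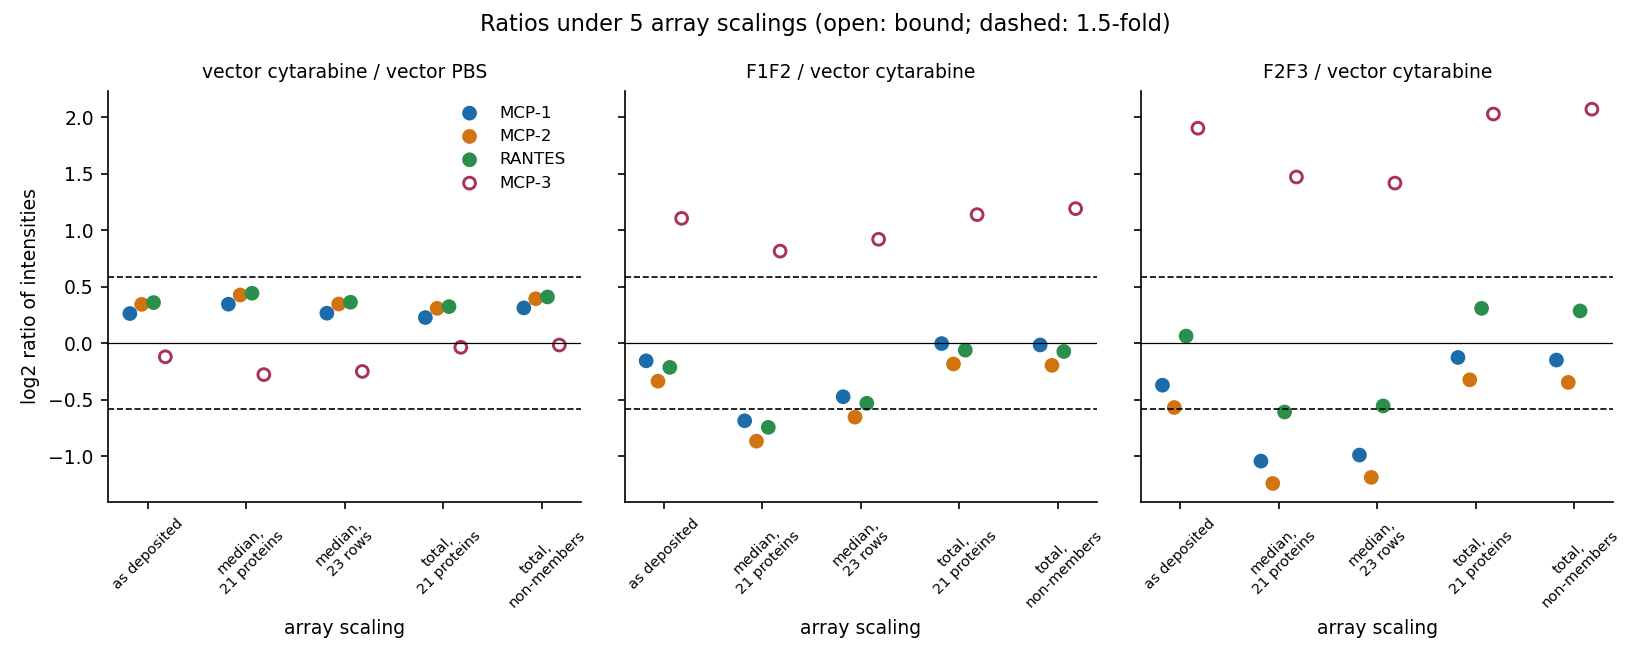
Log2 ratio of intensities (vertical axis) of the 4 CC chemokines in 3 comparisons of single arrays (panels) under 5 array scalings (horizontal axis); open circles are bounds and dashed lines mark 1.5-fold. The ratios with cytarabine in vector cells hardly move, MCP-1 and MCP-2 stay below 0 with either fragment, and RANTES with F2F3 lies on either side of 0.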

How the data were processed

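The authors deposited 1 table of array intensities for 4 samples, with 23 protein rows and 2 control rows. On every array the negative control reads 0 and the positive one 1, and 13 of 92 protein values are below 0, so the intensities were read as linear and background-subtracted; the sources used here do not give scanning, spot averaging or software. There is no read depth, and 1 array per group limits the precision. The rows TGF-beta and TNF-beta are identical in all samples and were left out of the ratios; they enter the count of values, the floor and the scaling over 23 rows. Log2 ratios were computed in 6 comparisons, with calls at 1.5-fold. All members are named, with the CXC list and, per member, the 3 most alike proteins; other proteins appear where a sentence turns on them. Members and lists were chosen with earlier results of these data known. The arithmetic was tested on simulated data (200 tables with 3-fold changes and starting values of at least 0.1). Calls that involved the floor were not checked there. Gene positions and promoters came from RefSeq. Python 3.11.15, pandas 2.3.3, NumPy 2.4.6 and matplotlib 3.10.9 were used.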

Additional observations from a re-analysis of the deposited data

Results flagged for a closer look

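The fragments differed in direction for RANTES against one reference and for MCP-1 and MCP-2 against the other, and none of these differences could be tested, as each is 1 array. Against the vector sample with cytarabine, the log2 ratio of RANTES was -0.21 for F1F2 but 0.063 for F2F3. Against the vector sample with PBS, MCP-1 had 0.11 with F1F2 and -0.11 with F2F3, and MCP-2 had 0.0074 and -0.23. Each of these ratios is under 1.5-fold and as deposited. With arrays brought to the same median over the 21 proteins, both fragments were lower for all 3: -0.75 and -0.61 for RANTES, -0.34 and -0.70 for MCP-1, and -0.44 and -0.82 for MCP-2. With the same total over these proteins, MCP-1 was higher than PBS with both (0.22 and 0.10). The directions still differed there for RANTES against vector with cytarabine (-0.061 for F1F2 and 0.31 for F2F3). They also differed for MCP-2 against PBS (0.12 and -0.016).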

How the results depend on the processing

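As deposited, the number of CC chemokines past 1.5-fold was 0 for cytarabine against PBS and 1, MCP-3, in each of the 5 comparisons with a fragment sample. A floor at the median of all protein values, or keeping only proteins that reached 0.1, left 0 in all 5. MCP-3 was too dim to have a ratio under either setting, so its calls were dropped without being measured again. A pseudocount of 0.05 left 0 in both comparisons with PBS and between the fragments and, with F1F2, against vector with cytarabine; only F2F3 against that vector sample kept 1. A 2-fold threshold left 0 for F1F2 against PBS and between the fragments. With no floor MCP-3 was lower with cytarabine, which makes 1. When a difference of 25% in the ratio sufficed, the count was 2 for cytarabine (MCP-2 and RANTES, higher), 2 for F1F2 (MCP-3 higher, MCP-2 lower) and 3 for F2F3 (MCP-3 higher, MCP-1 and MCP-2 lower) against vector, and 2 for F2F3 against PBS (MCP-3 and RANTES, higher). Arrays brought to the same median over the 21 proteins gave 4 for either fragment against vector with cytarabine (MCP-3 higher, the other 3 lower), 0 for F1F2 and 3 for F2F3 against PBS. The median over the 23 rows gave 2 and 3 against vector with cytarabine, 3 for F2F3 against PBS and 0 between the fragments. The same total, with or without the members, gave 2 for F2F3 against PBS (MCP-3 and RANTES, higher). For cytarabine against PBS the count was 0 under all 4 scalings. Shares over all panel proteins were computed only as deposited at 1.5-fold, and a scaling moves all measured ratios together. The counts under the other settings therefore do not set the members apart from the panel. Either total depends on bright proteins that differed between arrays, such as IL-6 and TNF-alpha. Either median is the reading of 1 protein under 0.1 on each array, so the counts under it depend on that reading. Why these readings differed between arrays was not tested. Among ratios of CC chemokines to each other, the largest change was 1.57-fold (MCP-2 to RANTES, F2F3 against PBS) and, with the pseudocount, 1.44-fold (the same pair, F2F3 against vector with cytarabine), an alternative added after seeing the data. No paired analysis was possible because each group has 1 sample.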
